A study of Mus musculus with 17 samples.

Results

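The chemosensory receptors on the array comprised 75 genes with 83 probe sets, of 18193 genes and 45037 probe sets measured. Members were all genes whose single symbol is Olfr, Vmn1r, Vmn2r, Tas1r or Tas2r followed by a number. They were 38 olfactory receptor genes (43 probe sets), 25 vomeronasal receptor genes of the V1R family (26 probe sets), 6 of the V2R family (8 probe sets) and 6 taste receptor genes (6 probe sets), of which 3 were Tas1r and 3 Tas2r. No member was left out for a low value. The rule leaves aside 12 receptor probe sets with several symbols and 3 of pseudogenes. The current mouse annotation lists 1106 olfactory, 230 V1R, 123 V2R and 38 taste receptor genes, so that 3.44%, 10.9%, 4.88% and 15.8% of the families were measured. All 75 members matched that annotation by gene identifier. There, 32 of them lay beside another member in 10 runs of neighbouring genes, the longest being the 8 genes from Vmn1r40 to Vmn1r47.

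All arrays carried mRNA of 1 source, adult female C57BL/6 mouse cortex, with no treatment. A single array, called bulk, held 5 µg of this mRNA without aRNA amplification, that is, without antisense copying by in vitro transcription. The other 16 arrays held dilutions of the same mRNA to 10, 1 or 0.1 pg, amplified for 2 or 4 rounds: 1 array for 10 pg after 2 rounds, and 3 arrays for each of the other 5 combinations. Within a group each array is an amplification of its own from that single RNA. The p-values therefore concern how amplifications vary, not how animals do, and precision is limited by the number of arrays. The design asks how a transcript's level holds when input approaches that of a single cell. Levels are given as scaled log2 values relative to the median of the array, or as a percentile among all probe sets of that array. The level of a probe set also depends on its own oligonucleotides, so levels of different receptors describe the probe sets and do not rank the transcripts.

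Olfactory receptors are G protein-coupled receptors for odorants, and an olfactory sensory neuron of the nose usually expresses a single one of them. V1R and V2R receptors serve the sensory neurons of the vomeronasal organ, where they bind pheromones and other social cues and signal through the G proteins Gnai2 and Gnao1 respectively. Tas1r receptors pair to detect sugars and amino acids and Tas2r receptors detect bitter compounds, both in taste buds. None of these sensory cells lies in the cortex, although some olfactory and taste receptors are also known from other tissues.

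The lists of cortical markers stood high in bulk by their medians. The 8 measured of 9 cortical neuron markers had a median percentile of 94.7 and the 9 measured of 10 markers of glia and vessels one of 88.0. Within the latter list Gfap, Cldn5 and Mog lay below the middle of the array, at 40.3, 23.2 and 15.4, and the other members above it. Of the 10 markers of olfactory sensory neurons 7 were measured, and their median percentile in bulk was that of the middle of the array. Cnga2 and Stoml3, the cyclic nucleotide-gated channel subunit and a stomatin of the olfactory cilium, lay at 18.9 and 13.2, and Omp, olfactory marker protein, at 79.2. Trpc2, the channel that defines vomeronasal neurons, lay at 8.81. The cortical neuron markers stood lower at the smallest input, which was 0.1 pg: 2 rounds gave 48.8 ± 6.92 (SD, n = 3) and 4 rounds 75.1 ± 14.1 (SD, n = 3). On some arrays many probe sets share a value: the 83 receptor probe sets took 76 distinct values in bulk, 21 on the 10 pg array after 2 rounds, and 22, 30 and 51 on the arrays of 0.1 pg after 2 rounds.

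Genes on the Y chromosome, which a female lacks, gave the level that a probe set can read without its transcript. Of 12 listed, 7 were measured, with 14 probe sets. Over all 14 the median percentile in bulk was 28.8, and 5 lay above the 50th percentile. With the brightest probe set of each gene alone the median was 60.7. Uty, a histone demethylase gene, lay at percentiles from 96.3 to 99.1 on the 17 arrays with the brightest of its 4 probe sets, while its other 3 probe sets lay between 4.55 and 20.5 in bulk. Sry, the testis-determining gene, was at 85.9 and 18.9 in bulk with its 2 probe sets. Eif2s3y, a translation initiation factor gene, was at 1.67 and 1.08. High readings on this array thus also came from some probe sets of genes that a female lacks. What those probe sets bound was not tested, nor was any bearing on the receptors below.

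The families differed in where they stood before amplification. In bulk the median percentile was 51.4 for the olfactory receptors, 19.1 for V1R, 20.3 for V2R and 41.6 for the taste receptors. Of the 26 V1R probe sets, 15 lay at or below the 25th percentile and 5 above the 50th. Of the 43 olfactory probe sets, 4 lay at or below the 25th percentile and 24 above the 50th. Most receptor probe sets have a RefSeq mRNA as their listed accession (75.9%, against 13.5% of all probe sets), namely 30 of the 43 olfactory, 24 of the 26 V1R, 3 of the 8 V2R and all 6 taste probe sets. In bulk the probe sets listed with a RefSeq mRNA had a higher median percentile than the rest of their family, with 52.0 against 40.6 for olfactory receptors, 20.1 against 10.00 for V1R and 37.4 against 4.25 for V2R. The rest includes probe sets with no accession listed, whose target is not known here. These are a probe set of Vmn1r41 in V1R, and several of Olfr78 and that of Olfr870 among the olfactory receptors. The part of probe design in the order of the families was not tested.

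The rank of the V1R family differed between inputs. The median percentile of V1R was 17.6 on the 10 pg array after 2 rounds. At 1 pg it was 33.3, 39.5 and 51.6 on the 3 arrays after 2 rounds, and at 0.1 pg 54.6, 46.6 and 49.6. With 4 rounds the 10 pg arrays gave 23.1, 23.9 and 29.1, those of 1 pg 19.8, 31.9 and 23.1, and those of 0.1 pg 48.6, 50.8 and 44.9. V1R thus stood near the middle of the array at 0.1 pg after either number of rounds, somewhat lower at 1 pg after 2 rounds and lower still elsewhere, and after 4 rounds the arrays of 0.1 pg did not overlap with those of 10 or 1 pg. The olfactory receptors stayed between 44.8 and 62.7 on all 17 arrays. V2R stayed between 9.43 and 45.4 and was lowest at 0.1 pg after 4 rounds (11.4 ± 3.46, SD, n = 3), where V1R was at 48.1 ± 2.95 (SD, n = 3). The taste receptors ranged from 31.2 to 67.5 and overlapped between all groups of 3 arrays, except that 0.1 pg after 4 rounds lay above 10 pg after 4 rounds and above 1 pg after 2 rounds.

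**Figure D1:**
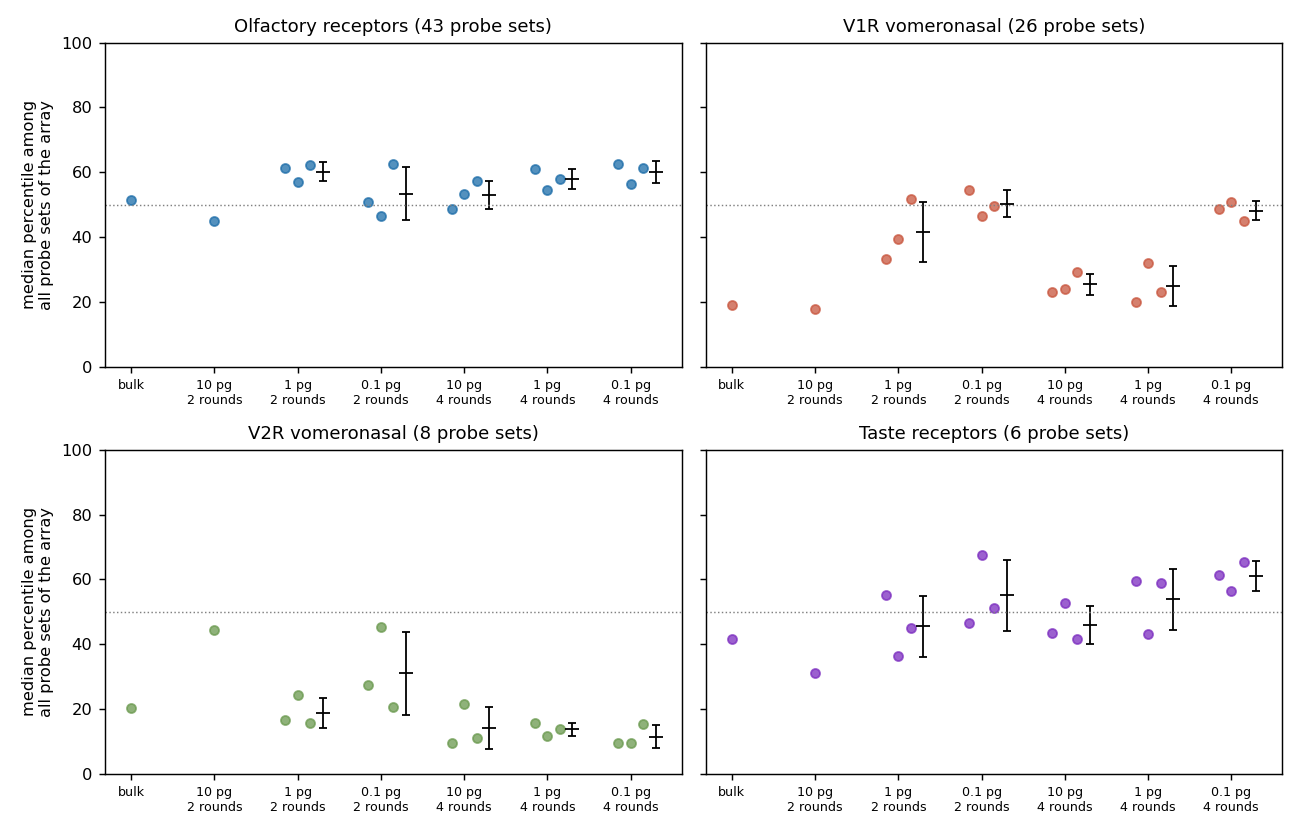
Median percentile of each receptor family among all probe sets of an array, with 1 point per array, by group on the horizontal axis; black marks are mean ± SD of the groups with 3 arrays and the dotted line is the middle of the array. V1R lay between 44.9 and 54.6 at 0.1 pg and between 17.6 and 31.9 on bulk, the 10 pg arrays and 1 pg after 4 rounds.

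**Figure D2:**
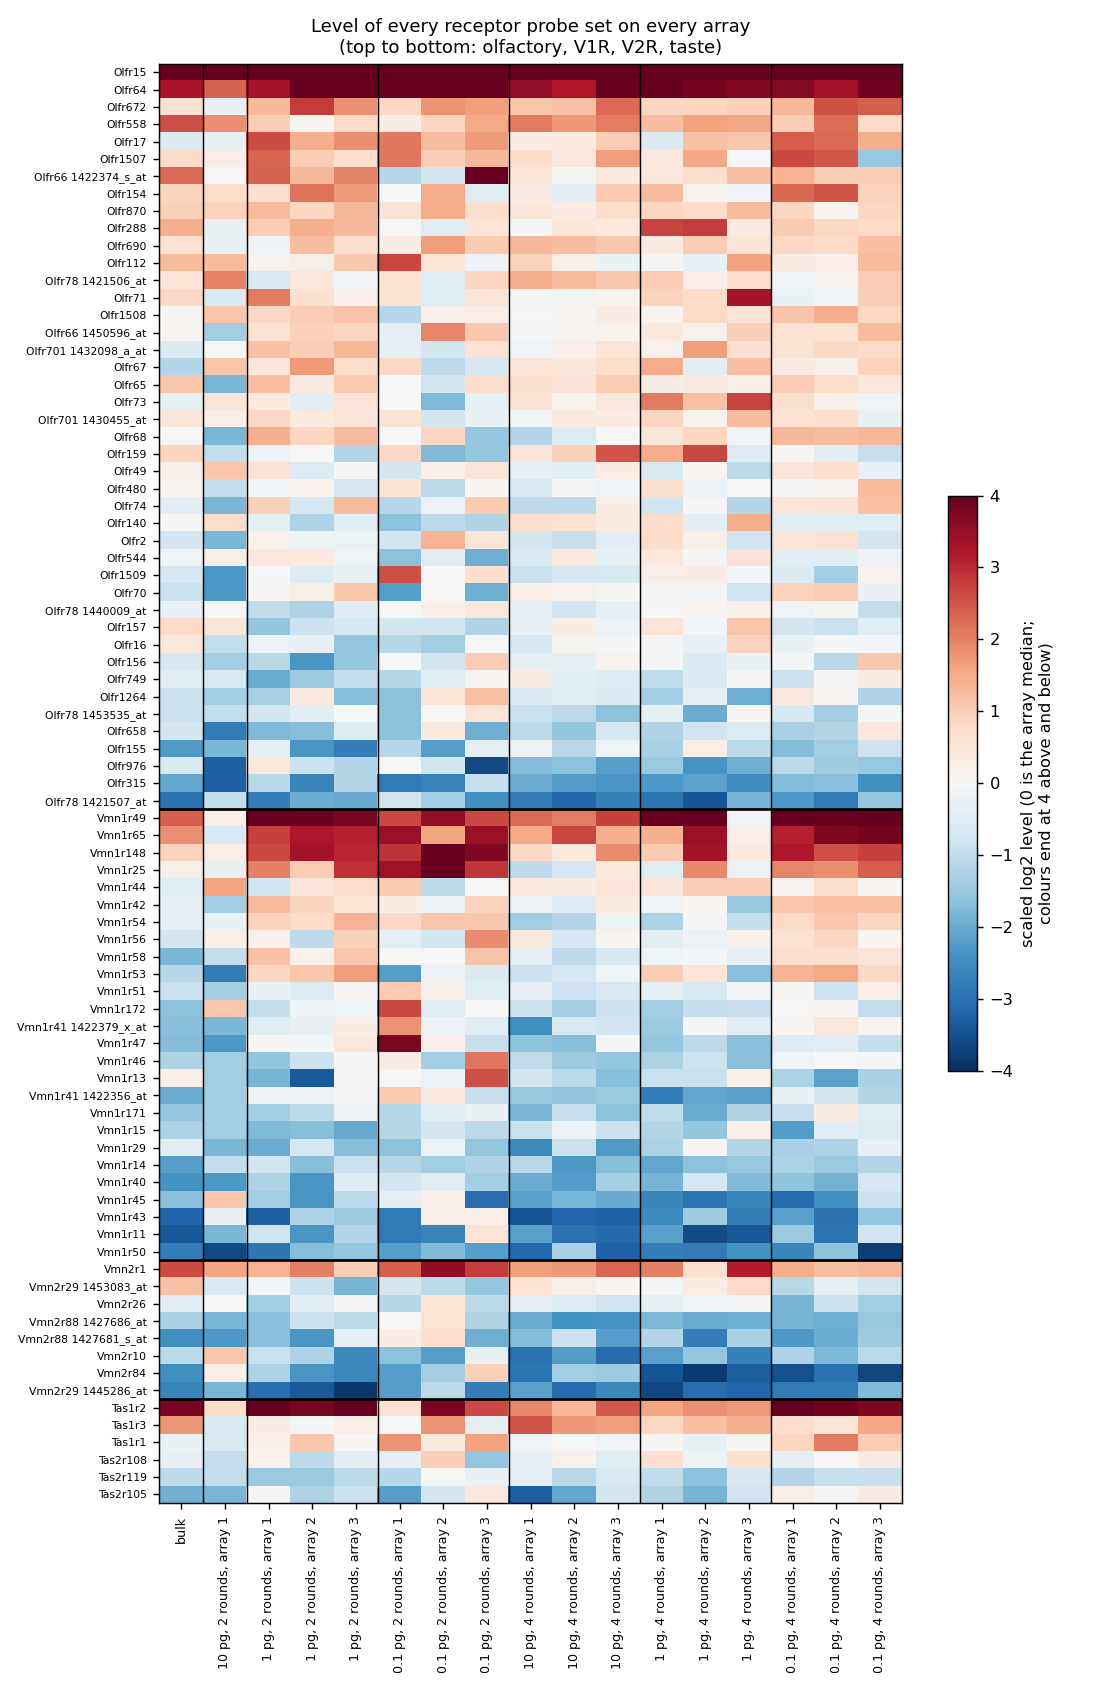
Scaled log2 level of each of the 83 receptor probe sets (rows, sorted by mean level within a family) on each of the 17 arrays (columns), with black lines between families and groups. Olfr15 and Olfr64 were high on all arrays, and 5 of the 26 V1R rows were above the 50th percentile in bulk against 13, 13 and 12 on the arrays of 0.1 pg after 4 rounds.

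Olfr15 was the receptor with the highest level. It stood at 5.83 in bulk and 6.67 on the 10 pg array after 2 rounds. The other arrays after 2 rounds read 6.02, 5.87 and 6.15 at 1 pg and 7.12, 6.59 and 6.48 at 0.1 pg. After 4 rounds it was 5.75, 5.79 and 5.77 at 10 pg, 5.88, 5.72 and 6.17 at 1 pg, and 5.62, 5.71 and 6.04 at 0.1 pg. It thus kept within the top 5% of the array on all 17 arrays, between percentiles 98.2 and 99.4, and the brightest Uty probe set was also within the top 5% on all of them. The change of Olfr15 from 10 to 0.1 pg after 4 rounds was 0.02 ± 0.36 (SE, limma adjusted p = 0.978). Olfr64 came next, at percentile 91.8 in bulk and 95.2 ± 1.61 (SD, n = 3) at 0.1 pg after 2 rounds. The latter is the only other mean of a group above the 95th percentile among the receptors.

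Olfr558, the mouse counterpart of the human receptor OR51E1, was at 2.58 in bulk and at percentile 89.0. With each gene taken by its brightest probe set, the lowest olfactory receptor genes in bulk were Olfr155 (percentile 5.43) and Olfr315 (7.39). Olfr315 was below the array median on all 17 arrays, with levels between -3.25 and -0.91. Olfr155 exceeded the median on 1 array, array 2 of 1 pg after 4 rounds, at 0.26. Both therefore stayed low in all groups.

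Several odorant receptors of known ligand or place lay between percentiles 29.1 and 68.5 in bulk. Olfr2, the receptor for octanal, was at percentile 29.1. Olfr73, which binds eugenol, was at 40.3. Olfr16 (MOR23), known also from sperm, was at 61.2. Olfr1507, Olfr1508 and Olfr1509, neighbours in a cluster with a well-studied enhancer, were at 68.5, 51.4 and 31.6. These 6 genes were chosen for their known biology after their values were seen. None of them passed the test in any of the 8 comparisons.

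Of the 6 genes with several probe sets, some gave unlike levels and some alike. Olfr78, a receptor for short-chain fatty acids that is also known from kidney and carotid body, has 4 probe sets, whose mean levels over the 17 arrays ran from -2.28 to 0.58. In bulk they read 0.53, -0.34, -0.90 and -2.99. The gap of 2.86 is larger than any change of a member called from 10 to 0.1 pg. The 2 probe sets of Vmn2r29 differed by 2.35 in mean level, those of Olfr66 by 0.53 and those of Vmn1r41 by 0.52. For Olfr701 and Vmn2r88 the difference was 0.11 and 0.04. For Olfr66 the probe set whose name ends in s_at, one that can match several transcripts, read -1.15, -0.74 and 4.52 on the 3 arrays of 0.1 pg after 2 rounds, and the other -0.35, 1.96 and 1.09.

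Reducing the input from 10 to 0.1 pg after 4 rounds raised 5 receptor probe sets and lowered 0 (limma, Benjamini-Hochberg adjusted p under 0.05 over 45037 probe sets). These were 6.02% of the members, against 8.86% of all probe sets called in either direction and 4.04% called higher, so the share called was near the background. The members that passed were 2 V1R receptors, 1 olfactory and 2 taste receptors.

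Vmn1r54 read -1.39, -1.17 and -0.20 at 10 pg and 0.79, 1.07 and 0.86 at 0.1 pg, so the groups did not overlap, and it rose by 1.83 ± 0.43 (SE, limma adjusted p = 0.0155). Vmn1r25 read -1.05, -0.68 and 0.42 at 10 pg and 1.97, 1.87 and 2.41 at 0.1 pg. Its rise of 2.52 ± 0.64 (SE, limma adjusted p = 0.0228) was the largest of the 83 probe sets. Neither gene was high in bulk, where Vmn1r54 read -0.36 and Vmn1r25 0.25.

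Olfr68 read -1.16, -0.56 and -0.03 at 10 pg and 1.29, 1.22 and 1.32 at 0.1 pg. It rose by 1.86 ± 0.54 (SE, limma adjusted p = 0.0402), the single olfactory receptor of 43 to pass. Its neighbour Olfr67 read 0.52, 0.47 and 0.72 at 10 pg and 0.33, 0.23 and 0.93 at 0.1 pg. The 2 neighbours thus did not move alike, and Olfr67 did not pass.

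Of the taste receptors, Tas1r2, the subunit particular to the sweet receptor, read 1.93, 1.30 and 2.45 at 10 pg and 4.47, 3.87 and 3.72 at 0.1 pg. It rose by 2.13 ± 0.61 (SE, limma adjusted p = 0.0403). Its level at 0.1 pg was that of bulk, 3.79, whereas 10 pg lay below bulk. Tas2r105, a bitter receptor for cycloheximide, read -3.30, -2.09 and -0.73 at 10 pg and 0.24, -0.04 and 0.33 at 0.1 pg, a rise of 2.21 ± 0.67 (SE, limma adjusted p = 0.0489). It read -1.93 in bulk.

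The arrays of 10 and 0.1 pg did not overlap for any of these 5, so leaving out 1 array could not turn a direction. With 1 array left out, the change of Vmn1r54 ranged from 1.59 to 2.18 and that of Vmn1r25 from 2.21 to 2.94. Olfr68 ranged from 1.57 to 2.14, Tas1r2 from 1.83 to 2.41 and Tas2r105 from 1.58 to 2.87. Calls became fewer, for receptors as for all probe sets. Without array 1 or 2 of 10 pg, or without array 2 of 0.1 pg, 0 receptor probe sets passed, where 3.34%, 4.22% and 3.74% of all did. Without array 1 or 3 of 0.1 pg 1 passed (4.00% and 6.47% of all), and without array 3 of 10 pg 5 passed (8.46% of all). When the fit held just the arrays of 10 and 0.1 pg after 4 rounds, 15 passed, all higher and 9 of them V1R, while 18.0% of all probe sets passed there.

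**Figure D3:**
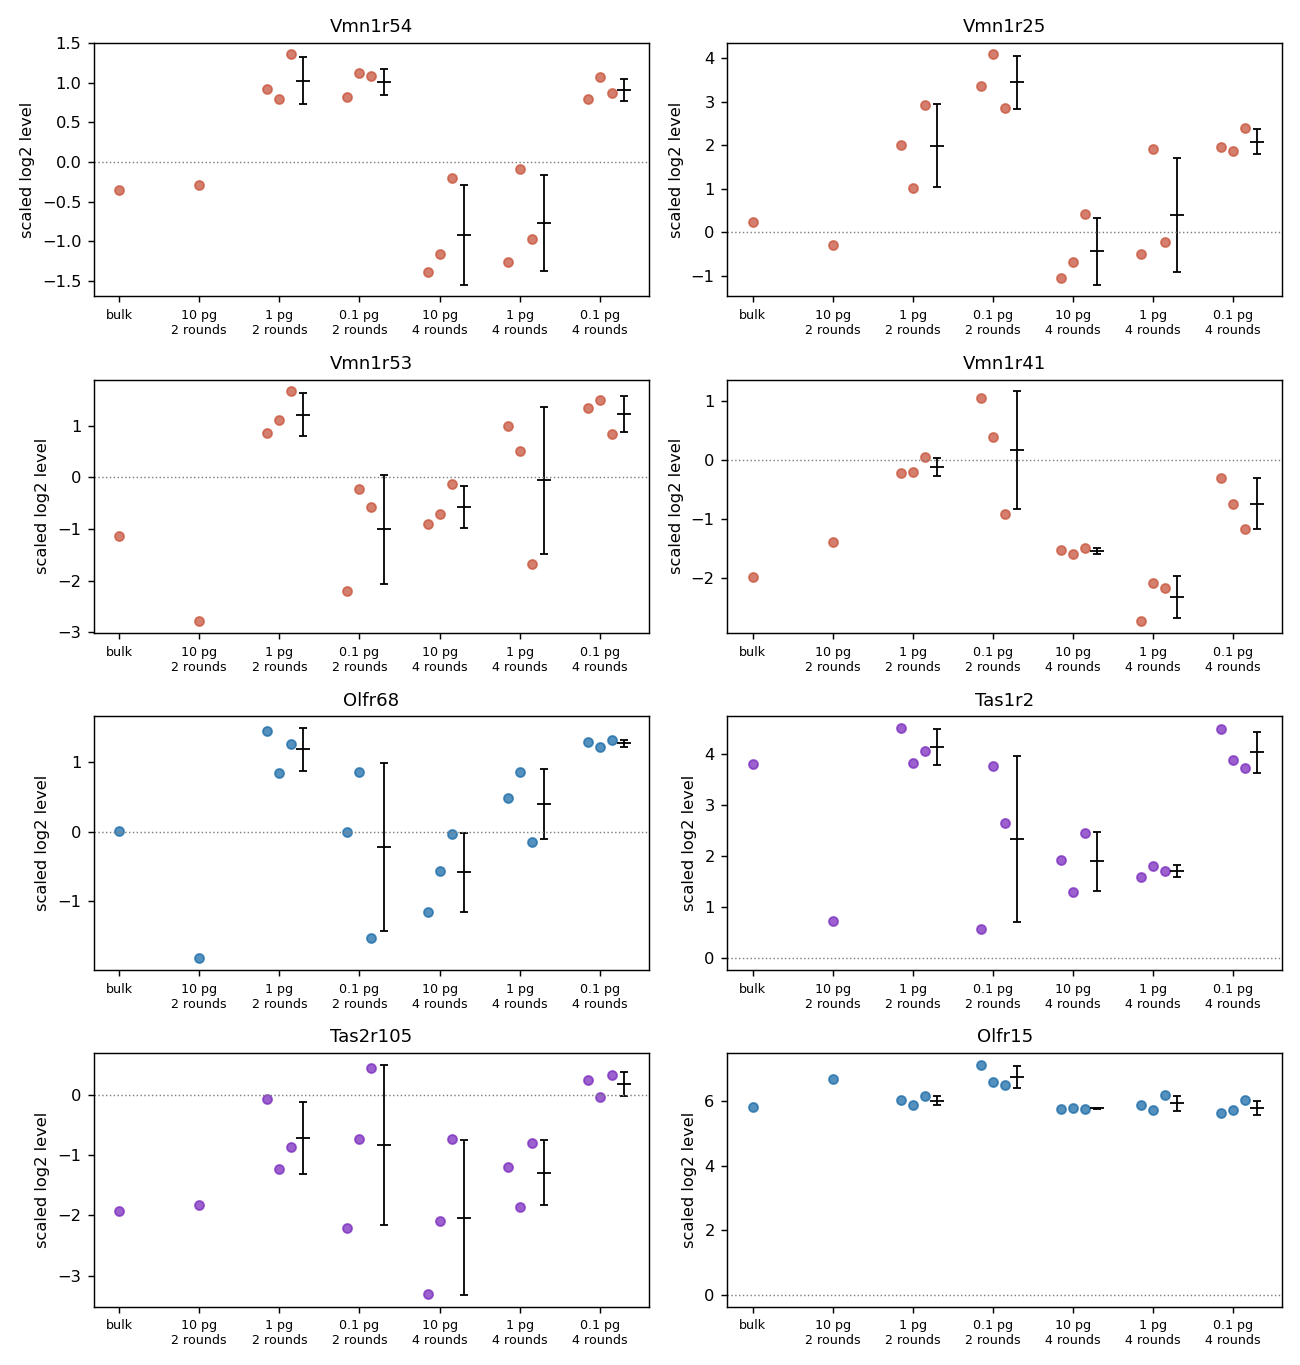
Scaled log2 level of 8 receptors on each array, by group; points are single arrays, black marks mean ± SD of groups with 3 arrays, the dotted line is the array median, and the vertical axes differ between panels. Vmn1r54 was above 0 on the 3 arrays each of 1 pg after 2 rounds and of 0.1 pg after 2 and 4 rounds, and below 0 on the other 8 arrays, whereas Olfr15 stayed between 5.62 and 7.12.

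Over the V1R family most changes were positive. The median log2 change from 10 to 0.1 pg after 4 rounds was 0.99, with 21 of 26 probe sets above 0, beside 0.10 and 53.8% over all probe sets. At an unadjusted p under 0.05, 10 of the 26 (38.5%) were higher and 0 lower, where 13.5% of all probe sets were higher and 25.4% passed in either direction. The olfactory receptors had a median of 0.22 with 31 of 43 above 0, the taste receptors 0.81 with 4 of 6, and V2R -0.44 with 3 of 8. The V1R genes with the highest levels in bulk had positive changes that did not pass: Vmn1r148 by 1.81 (limma, adjusted p = 0.0859), Vmn1r65 by 1.68 (limma, adjusted p = 0.137) and Vmn1r49 by 1.76 (limma, adjusted p = 0.186). These are medians and counts, with no test of the family.

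Low probe sets in general read higher at 0.1 than at 10 pg, so the starting level was set beside the shift. Among the 11276 probe sets in the lowest 25% of bulk, the median change was 0.41 and 70.0% were above 0. The 15 V1R probe sets in that range had a median of 0.80, with 12 above 0. In the range above, up to the 50th percentile, the medians were 0.14 for all probe sets and 0.75 for the 6 V1R probe sets. The V1R medians were larger than those of all probe sets at a like level in bulk, and the part of the starting level in the shift was not tested. The 7 olfactory sensory neuron markers had a median change of 1.36 in the same comparison, 0 of them called. Their median percentile was 56.6 to 64.3 on the arrays of 10 pg and 66.5 to 75.8 on those of 0.1 pg. All of them but Umodl1 are also among the 19 measured genes of olfactory transduction, whose median change was 0.02. On the arrays after 4 rounds the median percentile of the cortical neuron markers was 90.3 to 94.97 at 10 pg and 58.9 to 84.5 at 0.1 pg. The part of these moves in the shift of V1R was not tested.

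**Figure D4:**
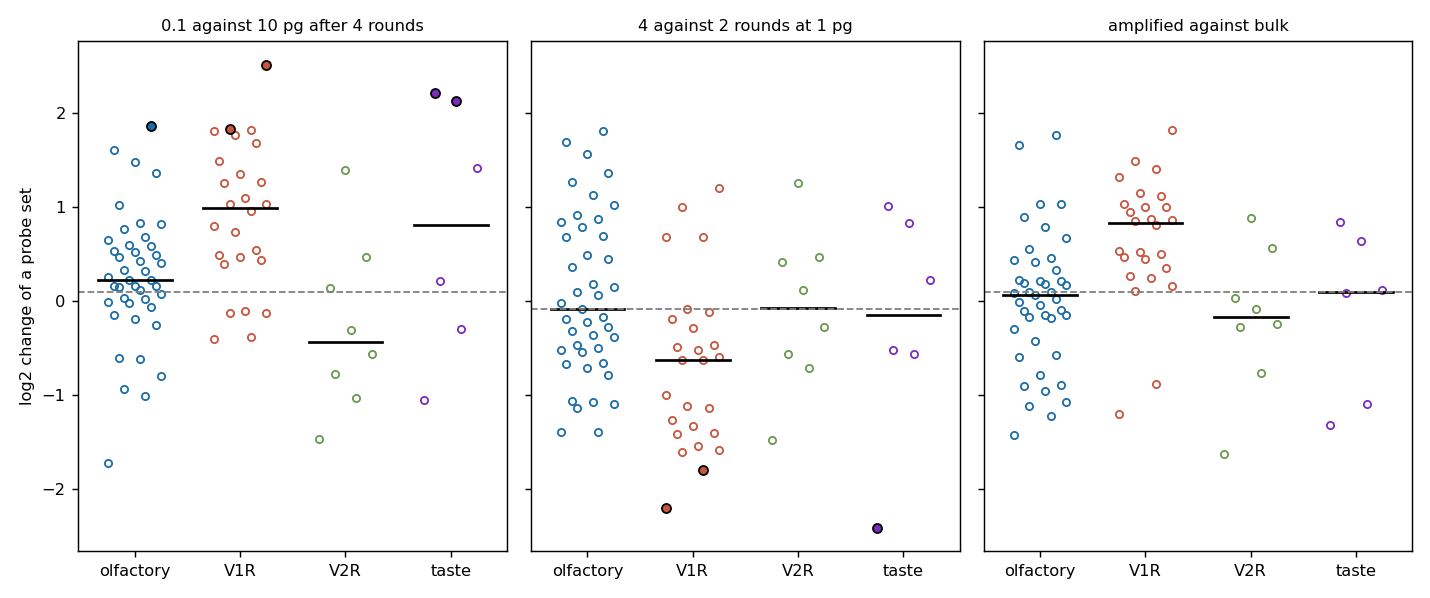
Log2 change of each receptor probe set in 3 comparisons, by family; filled points passed at an adjusted p under 0.05, black bars are family medians and the dashed line is the median of all probe sets. The V1R median was 0.99 from 10 to 0.1 pg after 4 rounds, -0.63 for 4 against 2 rounds at 1 pg and 0.83 for the amplified groups against bulk.

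The input was also compared step by step. From 10 to 1 pg after 4 rounds, 0 receptor probe sets passed (limma), where 0.657% of all did, and 4 of 83 had an unadjusted p under 0.05, against 9.51% of all. V1R had a median change of 0.11 there. The largest changes were Olfr71 (1.69; limma, adjusted p = 0.363) and Olfr288 (1.65; limma, adjusted p = 0.262). From 1 to 0.1 pg after 4 rounds, 1 of 83 (1.20%) passed, against 2.77% of all probe sets, and V1R had a median of 0.81 with 21 of 26 above 0. The call was Vmn1r54, at -1.26, -0.09 and -0.97 in 1 pg, which rose by 1.68 ± 0.43 (SE, limma adjusted p = 0.0476). It was lost without any 1 of the 3 arrays of 0.1 pg and without array 1 or 3 of 1 pg, where 0.460% to 1.88% of all probe sets passed. Without array 2 of 1 pg 6 receptor probe sets passed, and 5.62% of all. This comparison shares arrays with the other 2 after 4 rounds, so they are not independent.

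After 2 rounds, 0 receptor probe sets passed between 1 and 0.1 pg (limma), where 1.56% of all did, and 17 of 83 (20.5%) had an unadjusted p under 0.05, against 17.4% of all. The V1R median was 0.31. The V2R median was 1.07, with 7 of 8 above 0. After 4 rounds it was -0.01 with 4 of 8 above 0, and the difference was not tested. Vmn2r1, a V2R that vomeronasal neurons express together with other V2Rs, read 1.40, 2.03 and 0.99 at 1 pg and 2.40, 3.55 and 2.79 at 0.1 pg, a change of 1.44 (limma, adjusted p = 0.185). V2R values at 0.1 pg after 2 rounds were scattered, since the family's median percentile was 27.3, 45.4 and 20.6 on the 3 arrays. Without array 2 or array 3 of 0.1 pg, 3 and 2 receptor probe sets passed, and 2.08% and 4.83% of all.

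The number of rounds was compared at each input. At 1 pg, 3 receptor probe sets (3.61%) were lower after 4 than after 2 rounds and 0 higher. Of all probe sets 3.55% were called in either direction and 1.73% were lower, so the share called was that of the background. Vmn1r41 read -0.21, -0.19 and 0.06 after 2 rounds and -2.73, -2.07 and -2.16 after 4, a fall of 2.20 on the log2 scale (SE 0.47; limma, adjusted p = 0.0208). Its other probe set, whose name marks it as one that may match other transcripts (x_at), read -0.49, -0.30 and 0.30 after 2 rounds and -1.48, -0.05 and -0.42 after 4, and did not pass. The 2 probe sets of this gene thus gave different calls.

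Vmn1r54 read 0.92, 0.80 and 1.36 after 2 rounds at 1 pg and fell by 1.80 (SE 0.43; limma, adjusted p = 0.0335). Tas1r2 read 4.50, 3.81 and 4.05 after 2 rounds and 1.58, 1.81 and 1.71 after 4, and fell by 2.42 (SE 0.61; limma, adjusted p = 0.0414). Its groups lay far apart, with bulk at 3.79 on the side of 2 rounds. The V1R median was -0.63 with 4 of 26 above 0, beside -0.09 over all probe sets and -0.33 over those in the lowest 25% of bulk, where 15 V1R probe sets also had -0.63. Array 3 of 1 pg after 4 rounds stood apart for Vmn1r49, which read 3.96 and 4.45 on the other 2 arrays and -0.15 there. Without any 1 of the 3 arrays after 2 rounds, or without array 1 or 3 after 4 rounds, 0 receptor probe sets passed, where 0.306% to 1.01% of all did. Without array 2 after 4 rounds 9 passed, and 7.55% of all.

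At 0.1 pg, 0 receptor probe sets passed between 4 and 2 rounds (limma), against 3.15% of all, and 16 of 83 (19.3%) had an unadjusted p under 0.05, against 21.2% of all. The smallest adjusted p was that of Vmn2r84, which read -2.21, -1.38 and 0.96 after 2 rounds and -3.50, -2.99 and -3.64 after 4 (-2.50; limma, adjusted p = 0.0523). The median was -0.13 for V1R and -1.19 for V2R. Without array 1, 2 or 3 after 2 rounds, 2, 4 and 7 receptor probe sets passed, and 2.98%, 3.45% and 7.67% of all.

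The effect of rounds depended on the input for 2 receptors. Tas1r2 read 0.57, 3.77 and 2.63 at 0.1 pg after 2 rounds, a spread of over 3 log2 units between amplifications of the same RNA, and its change with rounds was 1.70 at 0.1 pg against -2.42 at 1 pg. The difference was 4.12 ± 0.87 (SE, limma adjusted p = 0.0201). Vmn1r53 read -2.21, -0.22 and -0.58 at 0.1 pg after 2 rounds and 1.36, 1.51 and 0.84 after 4, and 0.86, 1.11 and 1.68 at 1 pg after 2 rounds and 1.00, 0.52 and -1.68 after 4. Its difference was 3.51 ± 0.90 (SE, limma adjusted p = 0.0422). Vmn1r53 lies beside Vmn1r54, which did not pass here. The 2 called members were 2.41% of the receptors, against 3.59% of all probe sets. Leaving out 1 array at a time gave between 0 and 5 receptor probe sets, and between 0.757% and 7.40% of all. Tas1r2 kept its call in 9 of these 12 fits and Vmn1r53 in 4.

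Amplification as a whole, taken as the average over 6 amplified groups minus bulk, changed 0 receptor probe sets (limma), against 1.10% of all probe sets, and 4 of 83 had an unadjusted p under 0.05, against 13.4% of all. Bulk is 1 array, which the fit assumed to vary like the other groups, so a deviation of that array cannot be told apart from amplification. In simulated data this comparison called 6 of 100 probe sets changed by 2 log2 units and 55 of 100 changed by 4. No other probe sets changed there, so these counts need not hold for the data. The V1R median was 0.83, with 24 of 26 probe sets above 0, beside 0.10 and 54.4% over all probe sets. The largest V1R change was that of Vmn1r58, at -1.83 in bulk (1.81; limma, adjusted p = 0.134). The lowest V1R genes in bulk, Vmn1r11 at -3.39 and Vmn1r43 at -3.21, were at or below that level on 2 and 3 of the 16 amplified arrays. Both were picked for their low reading on the bulk array, so higher readings elsewhere follow in part from the choice. The V1R changes against bulk were not set beside those of probe sets at a like level in bulk. The other families had medians of 0.06 (olfactory), -0.17 (V2R) and 0.10 (taste).

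The remaining taste and V2R receptors gave no calls. Tas1r1, the subunit particular to the umami receptor, read -0.26 in bulk. After 4 rounds its 10 pg arrays read -0.13, 0.02 and -0.15 and its 0.1 pg arrays 0.87, 2.09 and 1.01 (1.41; limma, adjusted p = 0.0760). Tas1r3, which the sweet and umami receptors share, read 1.77 in bulk, 2.51, 1.72 and 1.67 at 10 pg and 0.67, 0.49 and 1.56 at 0.1 pg (-1.06; limma, adjusted p = 0.220). Neither passed, and the difference between them was not tested. The bitter receptors Tas2r108 and Tas2r119 changed by 0.21 and -0.30 (limma, adjusted p = 0.853 and 0.706).

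Among V2R genes, Vmn2r1 had the highest level in bulk, at percentile 89.2, followed by the brighter probe set of Vmn2r29 at 75.6 and Vmn2r26 at 37.4. Vmn2r26 is a receptor for peptides that bind MHC class I molecules. With each gene taken by its brighter probe set, Vmn2r88 (18.4) and Vmn2r84 (3.93) were the lowest. The dimmer probe sets of Vmn2r29 and Vmn2r88 read -2.63 and -2.44 in bulk, and that of Vmn2r29 was the lowest of the family (percentile 2.87). At 0.1 pg after 4 rounds Vmn2r1 read 1.45, 1.20 and 1.33, and every other V2R probe set was below the array median on the 3 arrays.

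**Figure D5:**
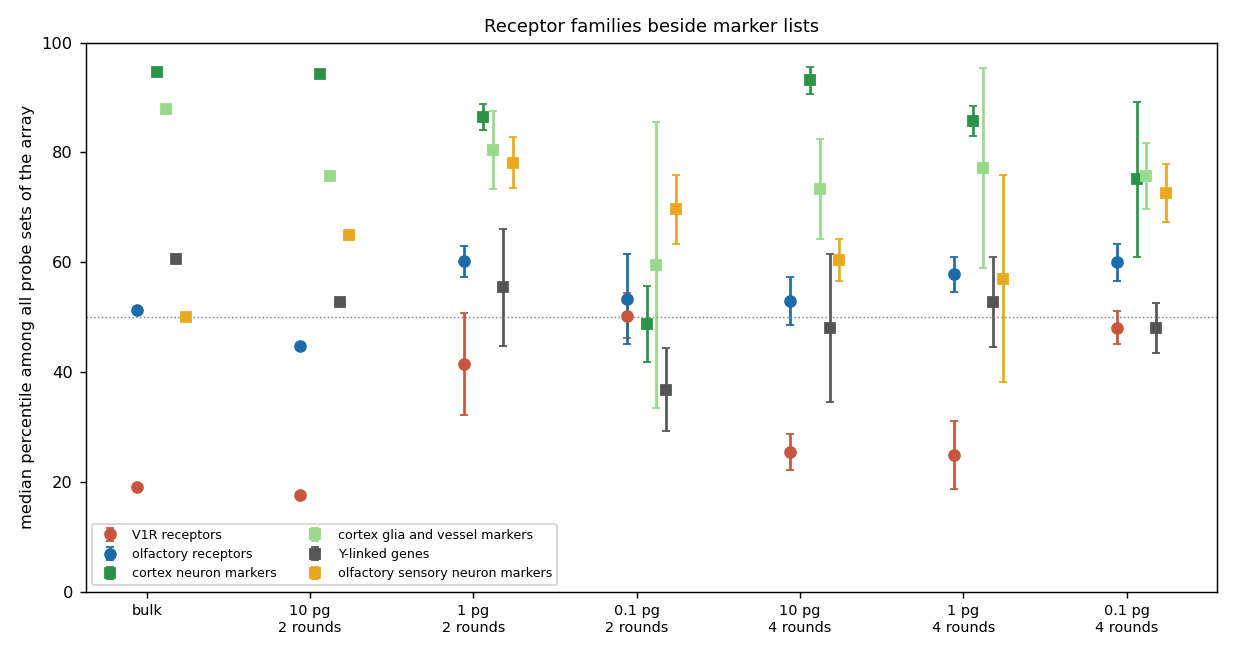
Median percentile of V1R and olfactory receptors (circles) and of 4 marker lists (squares) by group, as mean ± SD over arrays where a group has 3 and as the value of the array otherwise. Cortical neuron markers stood at 94.7 in bulk and 48.8 at 0.1 pg after 2 rounds, the group in which V1R stood at 50.3. Genes of the lists are taken by their brightest probe set and the families by all probe sets. The Y-linked genes thus stand at 60.7 in bulk, against 28.8 over all their probe sets.

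Genes of the receptors' signalling pathways were measured alongside. From 10 to 0.1 pg after 4 rounds, 2 of 19 genes of olfactory transduction fell and 0 rose, 2 of 10 of vomeronasal transduction fell and 0 rose, and 0 of 7 of taste transduction passed in either direction, where 4.83% of all probe sets were lower and 4.04% higher. Those that fell were Adcy3 (adenylyl cyclase of olfactory cilia, which fell by 1.90; limma, adjusted p = 0.0135), Emx2 (a transcription factor, which fell by 2.56; limma, adjusted p = 0.00867), Gnai2 (which fell by 2.34; limma, adjusted p = 0.0227) and B2m (the MHC class I light chain, which fell by 5.22; limma, adjusted p = 2.01e-05). These genes are also expressed in brain. The median changes of the pathway lists were 0.02, -0.37 and -0.08, whereas that of V1R was 0.99. These lists share genes with each other and with the olfactory sensory neuron markers, so their medians are not independent. The 6 markers of the olfactory bulb had a median percentile of 51.0 in bulk and a median change of -0.08, and 0 of them passed. Of 7 other chemosensory receptors, Taar1, a trace amine receptor, rose by 2.86 (limma, adjusted p = 0.0163) and the other 6 did not pass. Of the 7 Y-linked genes, Kdm5d, a histone demethylase gene, rose by 2.24 (limma, adjusted p = 0.00722) and Sry fell by 2.32 (limma, adjusted p = 0.0106). These calls rest on the brightest probe set of each gene, which for Sry is an x_at probe set. The other Sry probe set read a mean of -1.16 at 10 pg and -1.21 at 0.1 pg, and the other 2 of Kdm5d -0.08 and 0.42, and -0.53 and -0.18.

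Replicate amplifications spread as widely for receptors as for other probe sets. The median SD of a receptor probe set over 3 arrays was 0.53 for 1 pg and 0.87 for 0.1 pg with 2 rounds. With 4 rounds it was 0.36 for 10 pg, 0.51 for 1 pg and 0.43 for 0.1 pg. The medians over all probe sets were 0.50, 0.84, 0.42, 0.52 and 0.44 in the same order. The largest spread of a receptor was that of Olfr66 (s_at) at 0.1 pg after 2 rounds, an SD of 3.16. The 3 arrays of 0.1 pg after 2 rounds spread most in all 4 families by the median SD.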

How the data were processed

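RNA of 1 mouse cortex source was measured on 17 Affymetrix mouse genome arrays, without amplification or after a total of 2 or 4 rounds of aRNA amplification. The authors deposited log2 expression values from RMA 2.0, 1 per probe set and array. Their methods also name median centering and scaling by the distance from the 10th to the 90th percentile, which the deposited values do not show (array medians 5.64 to 6.01). Here 64 control probe sets were removed, each array was centred on its median, divided by that range and multiplied by the mean range of 4.63. Group means were fitted with limma 3.58.1 in R 4.3.3 (lmFit, eBayes) over all 7 groups and 45037 probe sets, and p-values were adjusted by Benjamini-Hochberg over all of them at 0.05. The bulk and the 10 pg group after 2 rounds have 1 array each, whose spread is taken from the others. The fit was tested on simulated data. Of 100 probe sets changed by 2 log2 units, it called 15 from 10 to 0.1 pg after 4 rounds. It called 26 between 1 and 0.1 pg after 2 rounds and 6 for amplified against bulk. Of 100 changed by 4 log2 units, it called 87, 88 and 55. All other simulated probe sets had equal group means. The data had more calls in these comparisons (3992, 704 and 494), and the adjusted threshold depends on that number. The simulated counts therefore need not hold for the data. A probe set that did not pass may still have changed. Gene symbols come from the platform annotation: 34945 probe sets have 1 symbol, 932 several and 9160 none. Families are described by medians and counts, without a test.

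The members and lists were chosen with earlier results of these data known. Genes named are up to 5 called rises and falls per comparison whose groups do not overlap, the 3 highest and 2 lowest genes of each family in bulk, members in the top 5% in a group, up to 3 genes whose probe sets differ most, all taste receptors, and up to 4 genes of a list. Others named were chosen after their values were seen. Alternatives were the deposited values, centering alone, quantile normalization, a filter on low values, the 0.1% false discovery rate and t-test of the methods, the compared groups alone, a replicate block, 1 probe set per gene, removal of ambiguous probe sets or of the 10 pg array after 2 rounds, and leaving out each array. No sequence is shown.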

Additional observations from a re-analysis of the deposited data

Results flagged for a closer look

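For 2 receptors the effect of 4 against 2 rounds differed between inputs by the test of the difference itself, which is why they are listed here. For Tas1r2 the change with rounds was 1.70 at 0.1 pg and -2.42 at 1 pg, a difference of 4.12 (limma, adjusted p = 0.0201). For Vmn1r53 it was 2.24 at 0.1 pg and -1.27 at 1 pg, a difference of 3.51 (limma, adjusted p = 0.0422). These are 2.41% of the receptor probe sets, against 3.59% of all probe sets called. Leaving out 1 array at a time, Tas1r2 kept its call in 9 of 12 fits (3.24 to 4.84) and Vmn1r53 in 4 of 12 (2.69 to 4.03).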

How the results depend on the processing

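The counts of receptor probe sets called depended on the setting, and the cause was not tested. The share of all probe sets called also changed with the setting, as given above for the compared groups alone. The counts here stand without that share, so they are not results about the receptors in particular. From the deposited values without centering or scaling, 2 were called from 1 to 0.1 pg after 4 rounds, 2 for rounds at 0.1 pg and 1 for amplification. With centering alone, the first 2 of these counts were 2 and 1. Without probe sets of below-median level, 3 were called from 1 to 0.1 pg after 4 rounds and 1 for the difference in the effect of rounds. At the 0.1% false discovery rate named in the methods, 0 were called from 10 to 0.1 pg and from 1 to 0.1 pg after 4 rounds, for rounds at 1 pg and for that difference. The methods' t-test at an adjusted p under 0.05 called 3 from 10 to 0.1 pg after 4 rounds, 0 from 1 to 0.1 pg after 4 rounds and 0 for rounds at 1 pg, and at the stricter rate 0 in each of these. Fitting the compared groups alone called 15 from 10 to 0.1 pg after 4 rounds and 1 for the difference. With the replicate number as a block, 3 were called from 10 to 0.1 pg, 0 from 1 to 0.1 pg after 4 rounds, 3 for rounds at 1 pg and 1 for the difference. The numbers did not pair the arrays, since the deviations of same-numbered arrays had a mean correlation of -0.00714 over 30 pairs (-0.199 to 0.139). With 1 probe set per gene, 2 were called from 1 to 0.1 pg after 4 rounds. Percentiles were then taken among these probe sets alone, so they cannot be compared with those among all probe sets. The medians in bulk and over the amplified groups were 41.2 and 43.2 for olfactory receptors, 12.4 and 24.2 for V1R, and 31.1 and 36.7 for taste receptors.

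Leaving out each array in turn gave 0 to 5 calls from 10 to 0.1 pg after 4 rounds, 0 to 1 from 10 to 1 pg, 0 to 6 from 1 to 0.1 pg after 4 rounds and 0 to 3 after 2 rounds. It gave 0 to 9 for rounds at 1 pg, 0 to 7 for rounds at 0.1 pg, 0 to 5 for the difference, and 0 throughout for amplification. The share of all probe sets called moved as well in these fits, as given above for several of them. The called changes kept their call in 24 of 78 fits that left out 1 array. They kept it in 71 of 76 under another scaling or normalization, the replicate block, fewer probe sets (1 per gene, no ambiguous ones) or without the 10 pg array after 2 rounds. In these fits 0 changed direction, which leaving out an array could not bring about where the compared groups do not overlap. The t-test, the 0.1% rate, the filter on low values and the compared groups alone are not in this tally.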
